A study of Mus musculus with 15 samples.

Results

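The KLF family genes Klf2, Klf3, Klf4, Klf6, Klf7, Klf10 and Klf13 were followed in dural macrophages of mice from before birth to adulthood. These 7 genes were listed by name, and each was found as 1 row of a count table of 53546 gene symbols. All 7 passed the filter on low counts, as did 14683 symbols in all. The libraries were bulk RNA-seq of CD206-positive cells sorted from the dura mater, the outer membrane around the brain. There were 3 libraries from each of 5 ages: the embryonic day labelled E14.5 and postnatal days 3 (P3), 10 (P10), 21 (P21) and 56 (P56). The mice of every age were C57BL/6J and Cx3cr1GFP/wt, so that 1 allele of the fractalkine receptor gene Cx3cr1 carries GFP in all libraries, and no treatment was given. The P56 libraries came from another sequencing project than those of the other 4 ages, so in any comparison with P56 age and project cannot be told apart.

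Krüppel-like factors (KLFs) are transcription factors that bind GC-rich sequences, GC boxes and CACCC boxes, through zinc fingers at their C-terminal end, which the Sp factors share. Their N-terminal ends differ, and so do the partners they recruit: KLF3 binds the co-repressor CtBP, KLF10 and KLF13 bind the SIN3 co-repressor, and KLF2 and KLF4 can bind histone acetyltransferases. In macrophages and monocytes, KLF2 is known as a brake on inflammatory activation, KLF4 as a factor of monocyte differentiation and alternative polarization, and KLF6 as a factor that favours inflammatory polarization.

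The promoters of the 3 genes with the largest changes that passed the test in the 6 comparisons below are shown first, because these genes rose most. RefSeq (mouse build GRCm38.p6) held a promoter for 6 of the 7 genes, and none is shown for Klf10. Each sequence is the 250 bases before the annotated start of the gene, read 5′ to 3′ on the strand of the gene. Klf2 lies at chr8:72318812-72319061 on the plus strand, Klf4 at chr4:55532476-55532725 on the minus strand and Klf13 at chr7:63938916-63939165 on the minus strand. Capitals mark GC boxes, spelled GGGCGG, together with CACCC boxes and MEF2 sites, and each motif was searched on both strands.
Klf2: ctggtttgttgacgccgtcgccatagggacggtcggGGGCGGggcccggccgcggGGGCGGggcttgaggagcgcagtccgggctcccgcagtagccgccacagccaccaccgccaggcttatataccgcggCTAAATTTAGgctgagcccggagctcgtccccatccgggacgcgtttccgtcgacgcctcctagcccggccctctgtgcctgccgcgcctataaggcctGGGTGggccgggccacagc
Klf4: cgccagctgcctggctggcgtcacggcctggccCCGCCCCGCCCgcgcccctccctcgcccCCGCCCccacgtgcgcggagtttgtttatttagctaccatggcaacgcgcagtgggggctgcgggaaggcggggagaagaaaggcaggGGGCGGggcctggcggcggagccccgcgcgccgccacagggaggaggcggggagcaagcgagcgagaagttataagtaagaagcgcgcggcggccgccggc
Klf13: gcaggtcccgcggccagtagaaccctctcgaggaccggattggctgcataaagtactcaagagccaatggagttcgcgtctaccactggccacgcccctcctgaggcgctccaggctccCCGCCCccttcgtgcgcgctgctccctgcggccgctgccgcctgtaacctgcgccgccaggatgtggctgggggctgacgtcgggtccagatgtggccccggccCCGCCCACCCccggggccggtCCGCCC

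All 3 promoters held GC boxes: 2 in Klf2, 4 in Klf4, of which the first 2 overlap, and 3 in Klf13. Among 32851 promoters of the same length, 32.7% held a GC box. Klf2 held 1 CACCC box and Klf13 1, which overlaps a GC box, while the Klf4 window held none, and 52% of all promoters did. A MEF2 site lay in the Klf2 window, starting 118 bases upstream of the gene, and 0.508% of all promoters held one. MEF2 factors are known to act on the Klf2 promoter downstream of the kinase ERK5. Each of the 3 windows also held 1 copy of TGACG, a part of the cyclic AMP response element, which 17.8% of all promoters held. These letter matches describe the sequence and were not linked to binding in these cells.

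Each age had n = 3 libraries. Total counts ran from 17550170 to 30614583 per library, and 11254 to 13654 symbols had at least 10 counts. Levels are given as CPM (a gene's share of the counts, scaled to a fixed library total) on the TMM scale, which scales libraries by a trimmed mean of their gene ratios. Changes are log2 values ± SE, the later age over the earlier, from edgeR's quasi-likelihood test, and a gene is said to have risen or fallen where its Benjamini-Hochberg adjusted p over all tested genes was under 0.05. P21 replicate 2 stood apart from the other libraries, with a score of 155.9 on the second principal component, where the other P21 libraries scored -20.0 and -22.5. In sorted bulk samples, fewer cells of a type and less RNA per cell cannot be told apart.

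The 7 genes together took up more of the libraries with age, and most of their sum was Klf6. Their summed level was 1397 to 1435 CPM of all counts at E14.5, 1422 to 1566 at P3, 1615 to 2152 at P10, 2402 to 3075 at P21 and 2956 to 3260 at P56. The P21 and P56 libraries all lay above those of the 3 earlier ages. Klf6 alone made up 55.5% (P3) to 67.3% (P21) of the sum, as the mean at each age. Not every gene shared the rise of the sum. On that scale the mean level at P21 was 0.848 times that at E14.5 for Klf3, 0.538 times for Klf7 and 0.871 times for Klf10. At P21, Klf2, Klf4, Klf6 and Klf13 had risen relative to E14.5, which is 4 of 7 genes, and 7.81% of all tested genes rose in that comparison. The 7 genes were chosen with earlier results of these data known, so such counts beside the background are descriptions and no independent test. None of the 7 fell in any of the 6 comparisons by edgeR with TMM factors. At an unadjusted p under 0.05, Klf7 was lower at P21 than at P10 and at P3, and DESeq2 called it in both (adjusted p = 0.0405 and 0.0236), while limma voom called no fall.

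**Figure D1:**
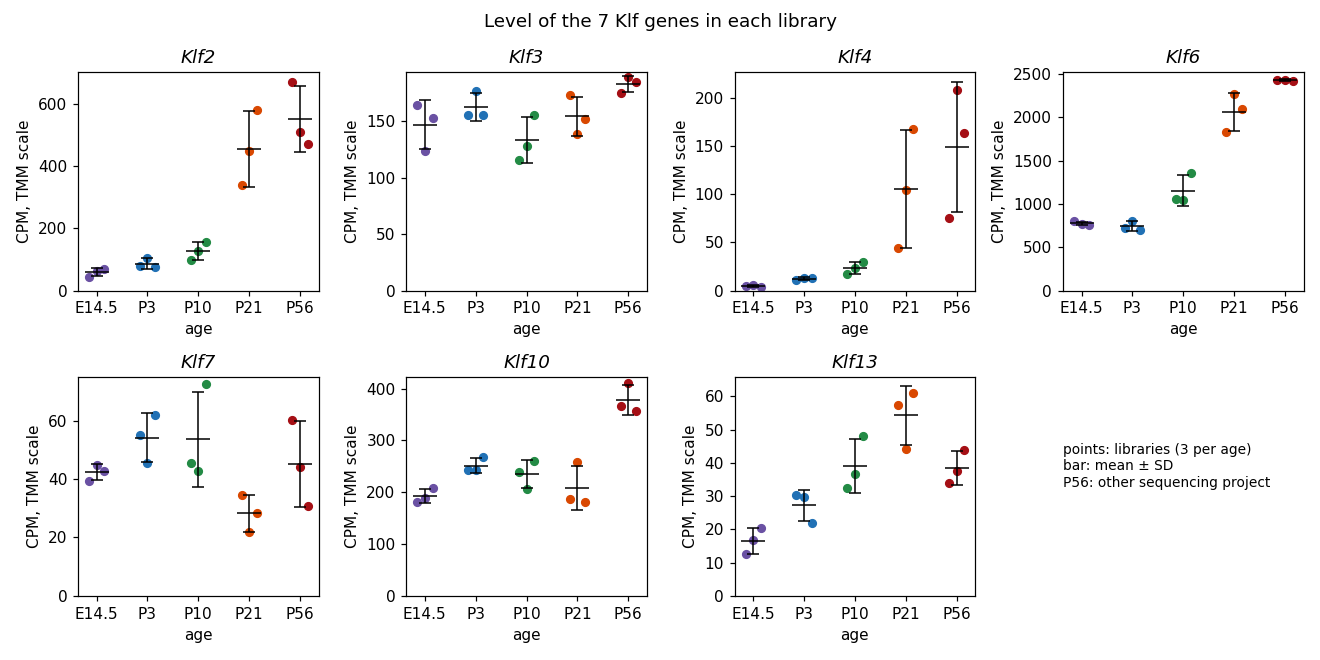
Level of each of the 7 Klf genes (vertical axis, CPM on the TMM scale, from 0) in the 15 libraries, by age (horizontal axis). Points are libraries and bars are the mean ± SD of 3. Klf2, Klf4 and Klf6 are higher in every P21 and P56 library than in any library of the earlier ages, while Klf3 stays between 115 and 189 CPM.

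Klf4 spanned the widest range of the 7 genes, with 55.8 times more CPM in its highest library than in its lowest. It had 5.21, 5.61 and 3.72 CPM in the E14.5 libraries, 10.99, 13.2 and 13.1 at P3, 17.6, 23.7 and 30.0 at P10, 44.6, 104 and 167 at P21, and 75.6, 208 and 163 at P56. No library of a later age overlapped those of the age before it until P21, after which the libraries of P56 and P21 overlapped. Relative to E14.5, Klf4 was 21.7-fold higher at P21 (log2 change 4.44 ± 0.48, adjusted p = 3.78e-05). The step that passed the test was P21 against P10, with means of 105 ± 61.4 and 23.8 ± 6.17 CPM (SD), a log2 change of 2.15 ± 0.43 and an adjusted p of 0.032. That call was lost under 9 of 24 other settings, with an adjusted p of at most 0.163. They include limma voom and leaving out E14.5 replicate 2, P3 replicate 2, any 1 P10 library, or P21 replicate 2 (log2 change 2.16, adjusted p = 0.0757) or 3. The steps P3 against E14.5 (log2 change 1.36 ± 0.44, adjusted p = 0.155) and P10 against P3 (0.94 ± 0.42, adjusted p = 0.485) did not pass, although DESeq2 called the first (adjusted p = 0.0276).

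Among the 7 genes, Klf4 was also the one whose replicates differed most at these ages. Its coefficient of variation was 45.2% at P56, with 2.75 times more CPM in the highest than in the lowest library, and 58.3% at P21, with 3.75 times more. Its level rested on 913 to 3475 counts per library at P21 and on 107 to 153 at E14.5.

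Klf2 rose in the same intervals as Klf4 and varied less between replicates at P21 and P56. It had 44.3, 62.4 and 70.7 CPM in the E14.5 libraries, 79.9, 106 and 74.5 at P3, 98.1, 129 and 157 at P10, 338, 448 and 580.1 at P21, and 670.3, 509.6 and 471.5 at P56. Every P21 and P56 library lay above every earlier one, and the libraries of P56 and P21 overlapped. At P21 the level was 7.70-fold that at E14.5 (log2 change 2.94 ± 0.26, adjusted p = 5.26e-06) and 5.24-fold that at P3 (2.39 ± 0.25, adjusted p = 1e-04). P10 was also above E14.5 (1.11 ± 0.24, adjusted p = 0.012), whereas the steps P3 against E14.5 (0.55 ± 0.24, adjusted p = 0.35) and P10 against P3 (0.56 ± 0.24, adjusted p = 0.458) did not pass on their own. The P10 against E14.5 call was lost without E14.5 replicate 1 and without P10 replicate 3, with an adjusted p of at most 0.0574.

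Klf6 was the most abundant of the 7 per exon length at every age. It had 798, 773 and 757 CPM in the E14.5 libraries, 721, 807 and 698 at P3, 1054, 1051 and 1359.95 at P10, 1828, 2269.8 and 2089.8 at P21, and 2428, 2434 and 2414 at P56. The libraries of E14.5 and P3 overlapped, those of P10 lay above both, and those of P21 and P56 each lay above the age before. Klf6 was the only one of the 7 with a called step at P10 against P3 (log2 change 0.64 ± 0.12, adjusted p = 0.0292), where 0.341% of all tested genes rose. It also rose at P21 against P10 (0.84 ± 0.12, adjusted p = 0.00342). At P56 its 3 libraries had a coefficient of variation of 0.418% on the TMM scale, and the difference from P21 did not pass (0.23 ± 0.12, adjusted p = 0.45).

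The call of Klf6 at P10 against P3 was lost under 10 of 24 other settings (adjusted p from 0.0546 to 0.167). Among them were leaving out any 1 of the P3 libraries, P10 replicate 2 or 3, or E14.5 replicate 2 or 3. The change itself stayed between 0.48 and 0.70 on the log2 scale.

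Klf13 rose over the first weeks and had its highest mean at P21. It had 12.5, 16.7 and 20.4 CPM in the E14.5 libraries, 30.4, 29.6 and 21.8 at P3, 32.4, 36.5 and 48.2 at P10, 57.5, 44.1 and 61.2 at P21, and 34.0, 37.6 and 44.0 at P56. All postnatal libraries lay above all E14.5 libraries, and the P56 libraries lay just below the lowest P21 library. P10 was 2.36-fold above E14.5 (log2 change 1.24 ± 0.25, adjusted p = 0.00709) and P21 3.28-fold (1.71 ± 0.25, adjusted p = 0.000445). No single step between neighbouring ages passed, from P3 against E14.5 (0.72 ± 0.25, adjusted p = 0.189) to P56 against P21 (-0.49 ± 0.24, adjusted p = 0.455). The rise at P21 against P3 passed narrowly (0.99 ± 0.25, adjusted p = 0.0399) and was lost under 15 of 24 other settings, with an adjusted p of at most 0.183. Among them were leaving out E14.5 replicate 2, any 1 of the P3 or P10 libraries, P21 replicate 1 or 3, or P56 replicate 5 or 6.

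Klf10, a gene induced by TGF-beta whose product represses transcription, differed from the others in its timing. It had 181, 189.8 and 209 CPM in the E14.5 libraries, 244, 242 and 268 at P3, 239, 206 and 261 at P10, 187, 258 and 182 at P21, and 366, 410.0 and 357 at P56. The P56 libraries lay above all 12 others. Klf10 was the only one of the 7 that rose at P56 against P21 (log2 change 0.85 ± 0.14, adjusted p = 0.0252), where 0.102% of all tested genes rose and 0.272% changed in either direction. The call was lost with only the ages compared and without E14.5 replicate 2, P21 replicate 1 or 3, or P56 replicate 4 or 5 (adjusted p at most 0.39). It was also higher at P56 than at E14.5 (0.97 ± 0.14, adjusted p = 0.000343), P3 (0.59 ± 0.14, adjusted p = 0.0224) and P10 (0.68 ± 0.14, adjusted p = 0.0124). All these calls rest on P56 libraries, for which age and sequencing project cannot be told apart, and without TMM factors the calls against P21, P10 and P3 were lost (log2 change 0.72, 0.37 and 0.18). The call against P3 was also lost without any 1 of the P3 libraries and without P56 replicate 5 or 6 (adjusted p from 0.0516 to 0.0909). That against P10 was also lost with only the ages compared and without P10 replicate 1 or 2 or P56 replicate 5 (adjusted p from 0.0515 to 0.0681). Among the 12 libraries of the other project Klf10 did not pass the test of any difference between ages (adjusted p = 0.259).

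Klf3, a repressor through CtBP, changed least. It ranged 1.64-fold over the 15 libraries, with 165, 123 and 153 CPM at E14.5, 156, 177 and 156 at P3, 115, 128 and 156 at P10, 173, 139 and 152 at P21, and 175, 189 and 185 at P56. Its libraries overlapped between P21 and E14.5, where the log2 change was 0.07 ± 0.15 (adjusted p = 0.816). None of the 10 pairs of ages passed by edgeR, and P56 against P10 came nearest (0.46 ± 0.15, adjusted p = 0.0898), which DESeq2 called (adjusted p = 0.0363).

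Klf7, known for its role in the growth of nerve fibres, was the one gene with its lowest mean at P21 on the TMM scale. As CPM of all counts, Klf10 also had its lowest mean at P21, with 192 beside 220 at E14.5. On the TMM scale Klf7 was distributed as follows. Klf7 had 39.4, 44.7 and 42.8 CPM in the E14.5 libraries, 55.1, 45.4 and 62.0 at P3, 45.5, 42.7 and 72.3 at P10, 34.4, 21.9 and 28.5 at P21, and 60.2, 44.1 and 30.8 at P56. All 3 P21 libraries lay below all libraries of the 3 earlier ages, and the P56 libraries spanned both ranges. The differences of P21 from P10 (log2 change -0.92 ± 0.28, adjusted p = 0.138), P3 (-0.94 ± 0.28, adjusted p = 0.0885) and E14.5 (-0.58 ± 0.27, adjusted p = 0.199) did not pass. With library totals alone, without TMM factors, the differences from P3 (-1.21, adjusted p = 0.0292) and E14.5 (-0.89, adjusted p = 0.0488) passed. In the GENCODE annotation the exons of Klf7 share 3196 bases with Gm26649 on the other strand, and those of Klf3 share 404 bases with Gm20033, which had 176 counts beside 52712 of Klf3. The strand setting of the counting is not given in the sources used here, so reads of such partners cannot be told apart.

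**Figure D2:**
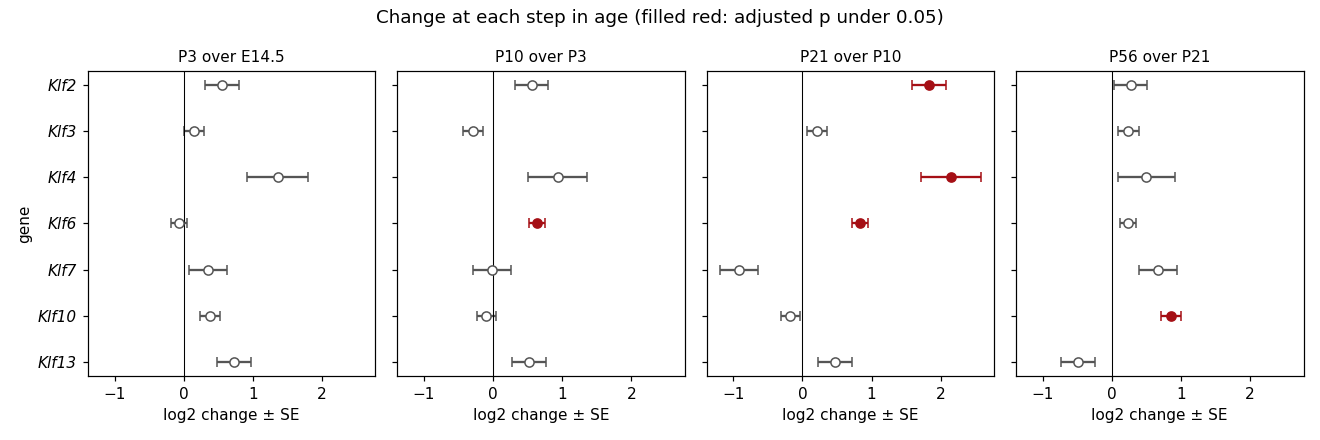
Log2 change ± SE (horizontal axis) of each Klf gene (vertical axis) at the 4 steps between neighbouring ages, the later age over the earlier. Filled red points passed the test at an adjusted p under 0.05. Klf6 passed at P10 against P3, Klf2, Klf4 and Klf6 at P21 against P10, and Klf10 at P56 against P21.

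Between neighbouring ages, most calls fell at P21 against P10. At P3 against E14.5, none of the 7 passed by edgeR or limma voom and 1 by DESeq2 (Klf4). By edgeR, 2.06% of all tested genes passed at an adjusted p under 0.05 and 1.67% rose. At an unadjusted p under 0.05, edgeR gave 4 of the 7 (Klf2, Klf4, Klf10 and Klf13), and the share of all tested genes at that threshold is not given here. The libraries of P3 and E14.5 did not overlap for 5 of 7 genes, all higher at P3, against 13.4% of all tested genes that did not overlap and were higher. At P21 against P10, 3 of 7 rose, against 0.96% of all tested genes. The median change of the 7 at that step was 0.48 on the log2 scale, and that of all tested genes -0.01. Leaving out 1 library at a time gave 2 to 3 calls at P21 against P10, and 2 (Klf2 and Klf6) without P21 replicate 2.

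Over longer intervals more genes passed. At P21 against P3, Klf2, Klf4, Klf6 and Klf13 rose, 4 of 7 against 2.7% of all tested genes. P10 against E14.5 gave the same 4, against 5.81%, and limma voom did not call Klf4 there (adjusted p = 0.189). P56 against E14.5 gave 5 of 7, Klf10 being the additional one, against 8.88%. P56 against P3 gave 4 of 7 against 4.54%, and P56 against P10 gave 4 of 7 against 3.13%, in both cases Klf2, Klf4, Klf6 and Klf10. Among the 12 libraries that share a sequencing project, Klf2, Klf4, Klf6 and Klf13 differed between ages (adjusted p = 3.51e-05, 0.00011, 2.06e-05 and 0.00524), 4 of 7 against 12.3% of 14287 tested genes.

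Ordered by mean level, Klf2 and Klf4 ran E14.5, P3, P10, P21 and P56, and of their 4 neighbouring pairs P21 against P10 passed. Klf6 ran P3, E14.5, P10, P21 and P56, with P10 against E14.5 (log2 change 0.57 ± 0.12, adjusted p = 0.00723) and P21 against P10 passing. Klf10 ran E14.5, P21, P10, P3 and P56, with P56 against P3 passing. Klf13 ran E14.5, P3, P56, P10 and P21, Klf3 P10, E14.5, P21, P3 and P56, and Klf7 P21, E14.5, P56, P10 and P3, and in none of these 3 did a neighbouring pair pass by edgeR. Of the 10 pairs of ages, 8 passed for Klf6, 7 each for Klf2 and Klf4, 4 each for Klf10 and Klf13, and 0 for Klf3 and Klf7.

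Per kilobase of exon the mean levels differed widely. Over the 15 libraries the mean level was 326 CPM per kb for Klf6, 139 for Klf2, 60.6 for Klf10, 19.4 for Klf4, 13.9 for Klf3, 5.49 for Klf7 and 4.66 for Klf13. The ranks moved with age. Klf4 had 48.8 CPM per kb at P56, above Klf3, Klf7 and Klf13, and 1.59 at E14.5, the lowest of the 7. Klf2 had 298 CPM per kb at P56, above the 90.3 of Klf10, and 32.0 at E14.5, below the 46.2 of Klf10. Lengths are the union of annotated exons, so these levels depend on the annotation.

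**Figure D3:**
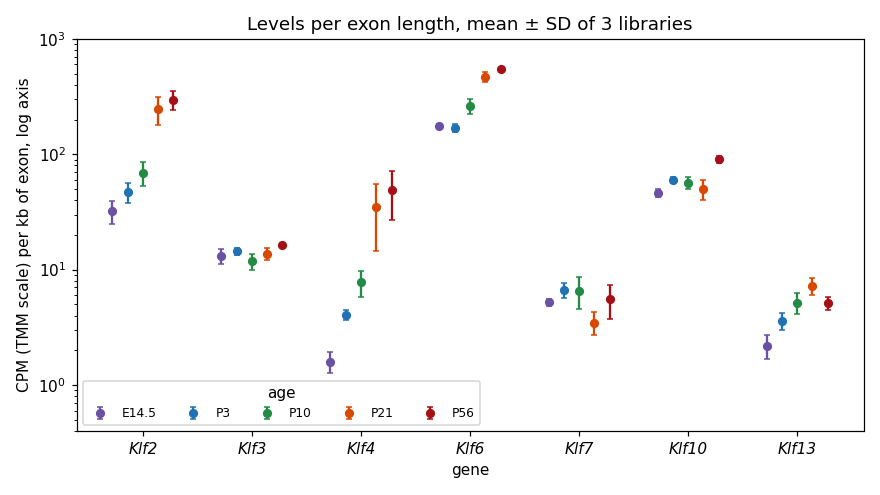
Mean ± SD (3 libraries) of the level per kilobase of exon (vertical axis, CPM on the TMM scale per kb, log axis) for each Klf gene (horizontal axis), coloured by age. Klf6 is highest at each age, and Klf4 passes Klf3, Klf7 and Klf13 between E14.5 and P56.

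Other genes followed these profiles closely across the 15 libraries. For each Klf gene the 3 most alike were taken from 6344 genes with a mean of at least 20 CPM, by Pearson's r of log2 CPM. The points share ages and libraries, so r mostly follows the trend with age, and no p is given. For Klf2 they were C5ar1, the receptor gene for complement C5a, with r = 0.965, Mgl2, a galactose-binding lectin gene, with 0.965, and Fxyd2, a regulator gene of the sodium pump, with 0.962. For Klf4 they were Cybb, a catalytic subunit gene of the phagocyte oxidase, with 0.969, Cp, the ceruloplasmin gene, with 0.969, and Fosb, an AP-1 gene, with 0.968.

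Neurl3, Fcrls and St3gal6 were most like Klf6, with r of 0.965, 0.965 and 0.961. Klf13 was followed most closely by Nr4a1, an orphan nuclear receptor gene of the immediate early class (0.952), Socs3, an inhibitor gene of cytokine signalling (0.933), and Cd14, the co-receptor gene for lipopolysaccharide (0.932). The values were lower for Klf10, with Derl2, S1pr1 and Herpud2 at 0.867, 0.854 and 0.849. They were also lower for Klf3, with Tm9sf2, Laptm5 and Tpp1 at 0.823, 0.780 and 0.779, and for Klf7, with Rpap3 at 0.803 and Cln8 at 0.797.

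Of the 10 other Klf genes in the count table, 7 passed the filter and 1 rose in the 6 comparisons, Klf9, whose product is known to respond to glucocorticoid and thyroid hormones. Klf9 had 1.74, 0.733 and 0.835 CPM in the E14.5 libraries, 0.723, 6.36 and 6.40 at P3, 7.01, 5.21 and 6.51 at P10, 43.0, 64.3 and 74.8 at P21, and 33.4, 49.3 and 88.1 at P56. Its P21 and P56 libraries all lay above those of the 3 earlier ages. The change at P21 was 3.28 ± 0.65 against P10 (adjusted p = 0.0309), 5.79 ± 0.74 against E14.5 (adjusted p = 0.000143) and 3.76 ± 0.66 against P3 (adjusted p = 0.00535). The call against P10 was lost without P21 replicate 2 (adjusted p = 0.0657), without P21 replicate 3 (0.0539), without any 1 P10 library (0.0891 to 0.137) and with a replicate block (0.0616). The call against P3 was lost with only the ages compared (0.0549). Klf8, Klf14 and Klf17 did not pass the filter, and Klf14 and Klf17 had 0 counts in all libraries. Of the related Sp genes, 5 of 9 passed the filter, and by edgeR none rose or fell in the 6 comparisons, nor by DESeq2 or limma voom. At an unadjusted p under 0.05, edgeR gave 1 higher and 2 lower values of the Sp genes over the 6 comparisons. The share of all tested genes at that unadjusted threshold is not given here. With library totals alone 1 Sp gene fell at P21 against E14.5. In the further pairs edgeR called none of the Sp genes, DESeq2 called Sp3 lower at P10 than at E14.5, and edgeR called Klf9 higher in all 4 and Klf11 higher at P56 than at P3.

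Genes that act before or beside the KLFs were counted next. The kinases and MEF2 factors of the ERK5 route to Klf2 and Klf4 passed the filter in 7 of 8 cases (Map3k2, Map3k3, Map2k5, Mapk7, Mef2a, Mef2c and Mef2d). None passed the edgeR test in the 6 comparisons, with 3 higher and 1 lower value at an unadjusted p under 0.05, none by limma voom and 1 by DESeq2 (Mef2a at P21 against P10). With library totals alone, 1 of them fell at P21 against E14.5. In the further pairs edgeR called Mef2a and Map3k3 higher at P56 than at P3 and at P10, and Map3k3 higher at P56 than at E14.5. The list of 11 partner genes held those of CtBP, SIN3, their deacetylases and the histone acetyltransferases, and beside these classes Wdr5. All 11 passed the filter. By edgeR none passed the test in the 6 comparisons, with 0 higher and 8 lower values at an unadjusted p under 0.05. Wdr5 and Hdac2 each recur among these 8, and the comparisons share libraries. The share of all tested genes at that threshold is not given here, for these genes or the ERK5 list. There was 1 lower call by limma voom (Wdr5), and 2 by DESeq2 (Wdr5 and Hdac2). With library totals alone, 1 of them fell at P21 against E14.5. In the further pairs edgeR called Wdr5 lower at P10 than at E14.5, and Wdr5 and Hdac2 lower at P56 than at E14.5. The median changes at P21 against E14.5 were 0.26 for the ERK5 and MEF2 genes and -0.09 for the partner genes on the log2 scale, beside -0.01 for all tested genes.

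Known targets of KLF2 or KLF4 in mouse endothelium, lymphocytes or macrophages rose in part. Of 12 listed genes, 10 passed the filter. At P21 against E14.5, 4 rose and 0 fell (5 rose without P21 replicate 2 and 2 with library totals alone). Their median log2 change was 1.41, and 7.81% of all tested genes rose in that comparison. Thbd, the thrombomodulin gene, had 166 ± 31.6 CPM at P21 and 14.496 ± 7.35 at E14.5 (log2 change 3.51 ± 0.60, adjusted p = 0.00144). Cdkn1a, the p21 cell cycle inhibitor gene, had 439 ± 105 CPM at P21 and 268 ± 10.3 at E14.5 (0.71 ± 0.19, adjusted p = 0.0276). Retnla, an alternative activation gene, had 41.1 ± 57.5 CPM at P21 and 0.122 ± 0.108 at E14.5 (8.30 ± 1.74, adjusted p = 0.00621), so its SD exceeded its mean. The fourth, S1pr1, a receptor gene for sphingosine-1-phosphate, had 119 ± 3.39 CPM at P21 and 81.5 ± 9.19 at E14.5 (0.55 ± 0.13, adjusted p = 0.0103).

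At P21 against P10, where Klf2, Klf4 and Klf6 rose, 0.96% of all tested genes rose. Of the 10 target genes, 1 rose and 0 fell, and their median log2 change was 0.03. The gene was Thbd, with 166 ± 31.6 CPM at P21 and 23.7 ± 15.4 at P10 (log2 change 2.81 ± 0.58, adjusted p = 0.034), and without P21 replicate 2 no target gene passed by edgeR. At P56 against P21 it was S1pr1 that rose (1.08 ± 0.13, adjusted p = 0.00456), with 251 ± 21.8 CPM at P56 and 119 ± 3.39 at P21, and S1pr1 was also among the genes most like Klf10. The median log2 change of the target genes at that step was -0.65, and with library totals alone 1 rose and 1 fell. The 12 listed genes summed to 1950 to 2116 CPM of the total at P56, 2874 to 3370 at P21 and 2838 to 3119 at E14.5. At P3 against E14.5, Cdkn1c, another cell cycle inhibitor gene (2.53 ± 0.29, adjusted p = 0.000413), and S1pr1 (0.62 ± 0.13, adjusted p = 0.0181) rose. At P21 against P3, 4 target genes rose (2 with library totals alone), beside 2.7% of all tested genes. Cdkn1c fell there by 1.85 on the log2 scale (adjusted p = 0.00211). At P10 against P3, Retnla was the 1 that rose (9.54 ± 1.86, adjusted p = 0.0458).

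Klf2, Klf4, Klf6 and Klf10 are themselves known as fast-response genes, and other genes of that class were read beside them. Of 21 tested immediate early genes, 3 rose and 5 fell at P3 against E14.5, and 6 rose at P10 against P3. At P21 against P10, 3 rose (Socs3, Btg2 and Dusp1). Of all tested genes, 1.67%, 0.341% and 0.96% rose at these steps, in that order. At P21 against E14.5, 12 rose and 2 fell (Egr1 and Myc), with a median log2 change of 0.91, and 7.81% of all tested genes rose. With library totals alone, 11 of the immediate early genes rose and 4 fell. Fosb had 343 ± 148 CPM at P21 and 35.6 ± 14.6 at E14.5 (3.27 ± 0.42, adjusted p = 0.000144), and Socs3 had 782 ± 199 CPM at P21 and 87.8 ± 7.99 at E14.5 (3.15 ± 0.26, adjusted p = 2.71e-06). As CPM of the total, the sum of the 21 genes was 20723 to 22659 at E14.5, 12941 to 15287 at P3, 22631 to 27314 at P10, 25522 to 28641 at P21 and 22183 to 30710 at P56. This sum was lowest at P3. All P3 libraries lay above those of E14.5 for Klf2, Klf4 and Klf10, as for 13.4% of all tested genes. By edgeR none of these 3 was called there (adjusted p = 0.35, 0.155 and 0.253). Klf6, like the sum, had its lowest mean at P3, with 742 ± 57.6 CPM on the TMM scale at P3 and 776 ± 20.7 at E14.5, and its libraries of these ages overlapped. Within P56 the sums were 22183, 30710 and 25986 in replicates 4, 5 and 6, the order of Klf4, and within P21 they were 28641, 25522 and 27948 in replicates 1, 2 and 3, which is not the order of Klf4. The part of the immediate early genes in the changes of the Klf genes was not tested.

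**Figure D4:**
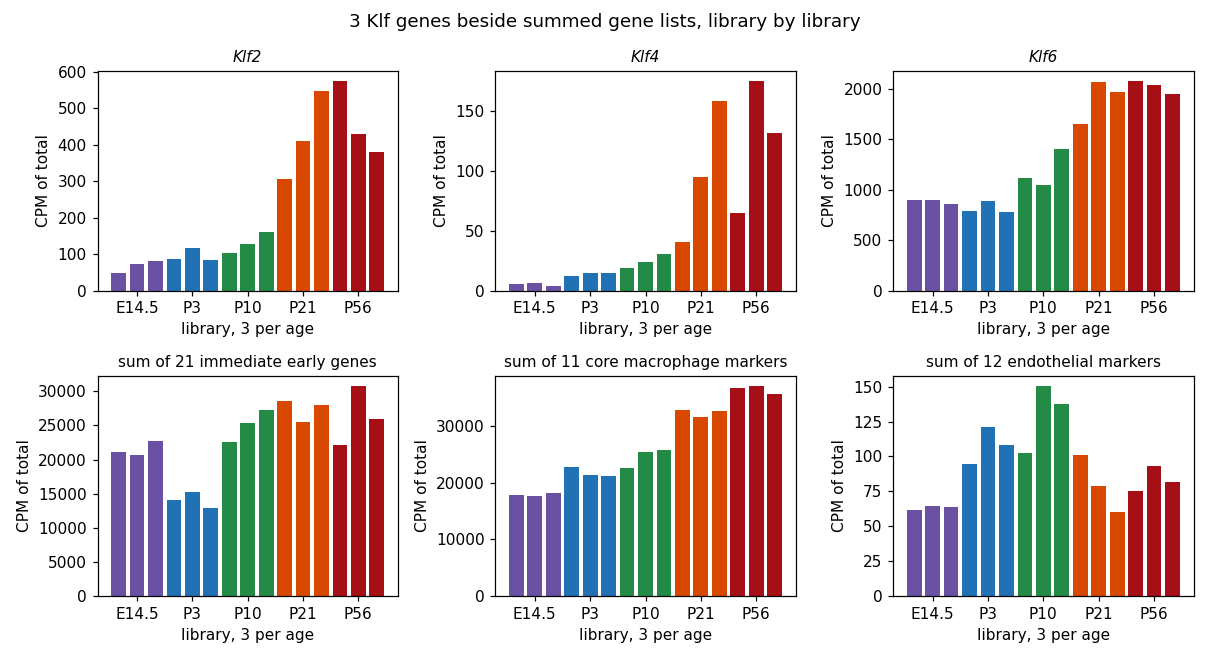
Levels of Klf2, Klf4 and Klf6 and summed levels of 3 gene lists in each of the 15 libraries (vertical axes, CPM of the total, from 0), with 1 bar per library in replicate order within each age (horizontal axis). The sum of 21 immediate early genes is lowest at P3, where Klf2 and Klf4 are above E14.5, the sum of 11 core macrophage markers is higher in each P21 and P56 library than earlier, and the sum of 12 endothelial markers stays under 151.

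Genes that respond to glucocorticoids or to heat were counted in the same way. Of all tested genes, 7.81% rose at P21 against E14.5 and 0.96% at P21 against P10. Of 12 glucocorticoid response genes, 8 rose and 0 fell at P21 against E14.5, and 3 rose at P21 against P10: Fkbp5 (log2 change 3.79 ± 0.64, adjusted p = 0.0142), Tsc22d3 (2.92 ± 0.26, adjusted p = 0.000149) and Errfi1 (1.82 ± 0.24, adjusted p = 0.00299). Tsc22d3, the gene of the glucocorticoid-induced leucine zipper, had 1713 ± 514 CPM at P21 and 226 ± 40.9 at P10. Of 10 heat shock genes, 2 rose at P21 against P10 by edgeR, Hspa1a and Hspa1b, near-identical copies whose reads the counting could split, and neither was called without P21 replicate 2. The 10 heat shock genes summed within P56 to 1617, 3008 and 3400 CPM of the total in replicates 4, 5 and 6. Among these, replicate 4 also had the lowest Klf4, but the highest Klf2. Within P21 the sums were 2499, 3265 and 2602 in replicates 1, 2 and 3, which is not the order of Klf4. The part of these 2 lists was not tested.

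Klf2 and Klf4 are also abundant in endothelial cells and lymphocytes, so the markers of those cells are given beside them. Summed over 12 endothelial markers, the share of all counts was 61.3 to 64.5 CPM at E14.5, 94.3 to 121 at P3, 102 to 150.1 at P10, 60.0 to 101 at P21 and 75.0 to 92.8 at P56. Most of this was Egfl7, with 44.1 to 145 CPM. Pecam1 had at most 14.4, Cdh5 at most 5.83, Kdr at most 2.51 and Cldn5 at most 1.66 CPM in any library. By edgeR 1 of 10 tested endothelial markers rose at P21 against E14.5 (Egfl7; none with library totals alone), and none changed at P21 against P10, where 0 were higher and 2 lower at an unadjusted p under 0.05 and DESeq2 and limma voom called none. Of the T and NK cell markers, Cd3e was at 0 in 13 of 15 libraries and Lck in 12, and the 10 markers summed to at most 7.64 CPM. Of the B cell markers, Ighm had 199 to 813 CPM and Cd79b 66.9 to 117, while Pax5 was at 0 in 11 libraries. The 8 B cell markers summed to 779 to 915 CPM of all counts at P21 and 507 to 648 at E14.5, and 1 of 4 tested rose at P21 against E14.5, at P21 against P3 and at P10 against P3.

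The 7 monocyte markers summed to 1587 to 2187 CPM of the total at P21 and 234 to 449 at E14.5. Of them 2 rose, Nr4a1 and Ccr2 (1 without P21 replicate 2, and 1 with library totals alone). At P21 against E14.5, 7.81% of all tested genes rose, which is the background for this list and those below. Most of the monocyte sum was Nr4a1, with 208 to 2105 CPM, and Ly6c2 had at most 4.38 CPM, with 0 in 7 of 15 libraries. Ccr2, the chemokine receptor gene of monocytes, ranged from 10.8 to 460 CPM. All 10 markers of border-associated macrophages, among them Mrc1, the gene of CD206, were above 0 at every age. They summed to 15999 to 18214 CPM of all counts at P21 and 13479 to 16712 at E14.5, and 6 rose and 1 fell at P21 against E14.5 (0 fell without P21 replicate 2, and 2 fell with library totals alone). The 11 core macrophage markers summed to 31711 to 32960 CPM of the total at P21 and 17652 to 18158 at E14.5, and 7 of them rose at P21 against E14.5 (6 without P21 replicate 2; with library totals alone 4 rose and 1 fell). The 10 fibroblast markers summed to 2463 to 3340 CPM of the total at P21 and 1493 to 2566 at E14.5 (Igfbp4 alone had 893 to 2372 over the 15 libraries), and 3 rose (2 without P21 replicate 2). The 7 microglia markers summed to 2223 to 2735 CPM at P21 and 914 to 1166 at E14.5, and 5 of 6 tested rose (4 without P21 replicate 2, and 4 with library totals alone). The 8 dendritic cell markers summed to 60.9 to 71.2 CPM at E14.5, 157 to 276 at P21 and 191 to 372 at P56. At P21 against E14.5, 2 of 6 tested rose and 1 fell (0 fell without P21 replicate 2). Xcr1 and Clec9a were at 0 in all P21 libraries, and Clec9a also in all E14.5 libraries. The sums at P21 thus rest on the other markers, and those that rose are not named here.

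Markers of other cells of the blood, vessel wall and bone also differed between ages. The 8 mural cell markers summed to 19.5 to 36.0 CPM at P21 and 3.22 to 5.60 at E14.5, and 2 of 7 tested rose (1 without P21 replicate 2). The 8 erythroid markers summed to 1.81 to 5.34 CPM at P21 and 106 to 118 at E14.5, and 4 fell (3 without P21 replicate 2). The 8 mast cell markers summed to 636 to 1763 CPM at P3 and 2.11 to 126 at E14.5, and to 4.05 to 10.95 at P21. The 8 osteoclast markers summed to 189 to 273 CPM at P21 and 924 to 1910 at P10, and 1 of 6 tested fell (0 without P21 replicate 2). The part of these lists in the changes of the Klf genes was not tested.

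The scaling of the libraries bears on the smaller changes. TMM factors were 0.902 to 0.944 at P21 and 1.12 to 1.16 at E14.5, so that without them all changes at P21 against E14.5 shift by -0.32 on the log2 scale in the median of all genes. With library totals alone, Klf2, Klf4, Klf6 and Klf13 still rose at P21 against E14.5 (log2 change 2.64, 4.14, 1.10 and 1.40), whereas Klf3 and Klf10 turned to -0.24 and -0.20, neither of which passed.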

How the data were processed

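Values were raw read counts per gene symbol, as deposited in 1 table with 15 library columns, all mapped to samples by their labels. Tools listed per the submitters' processing notes are STAR 2.7.8a, featureCounts 2.0.2 and bcl2fastq 2.18. Genome build, annotation, strand setting and the handling of reads that map to several genes are not given in the sources used here. Per the labels' protocols, cDNA was made with the SMARTer v4 kit and libraries with Nextera XT, without mention of molecular identifiers.

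Counts were fitted in edgeR 4.0.16 (R 4.3.3) with TMM factors, filterByExpr and a robust quasi-likelihood fit over all 15 libraries. The 6 comparisons were the 4 steps between neighbouring ages and P21 against each of E14.5 and P3; 4 further pairs were tested in the same fit after the 6 were seen, and an F-test used the 12 libraries that share a project. P-values were adjusted over all tested genes and reflect only the spread among same-age libraries; the series text gives 3 to 5 mice per age. The tests were tested on simulated data.

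All 7 members are named, with the 3 genes most like each (log2 CPM, prior count 2, mean of at least 20 CPM, no predicted model, ribosomal, mitochondrial or pseudogene symbol) and up to 3 called genes per list and comparison with the largest change; S1pr1 at P21, Errfi1 and single marker genes were named after their values were seen. The members and lists were chosen with earlier results of these data known. Exon lengths and overlaps came from GENCODE M21, promoters from RefSeq. Alternatives were RLE and upper quartile scaling, library totals, other filters, limma voom 3.58.1, DESeq2 1.42.0, only the ages compared, a replicate block, and leaving out each library. Replicate numbers showed no clear pairing of libraries: in 18 same-number pairs r of the deviations from the age means was -0.06 to 0.06 (mean 0.011). In 36 pairs of other numbers it was also -0.06 to 0.06 (mean -0.005). With 3 libraries per age these values cannot exclude a pairing. Some genes that the rule names are not reported here.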

Additional observations from a re-analysis of the deposited data

How the results depend on the processing

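Of 1652 recomputed changes of the 7 genes over 10 pairs of ages, 1573 kept direction and side of the threshold, 56 lost a call, 6 gained one and 17 turned sign; no turned value was called before or after. Every call of Klf2, Klf4, Klf6 and Klf13 at P21 against E14.5 was kept under all 24 alternatives, and Klf2 was kept at P21 against P10 and against P3 as well. Klf4 at P21 against P10 was lost under 9 of 24 (limma voom, only the ages compared, and 7 single libraries left out: E14.5 replicate 2, P3 replicate 2, each P10 library and P21 replicates 2 and 3), with an adjusted p of at most 0.163. Klf10 at P56 against P21 was lost under 7 of 23, with at most 0.39. The depth of 107 to 153 counts limits Klf4 at E14.5. Why these values moved was not tested.

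The number of the 7 genes called at P3 against E14.5 was 0, and 1 with DESeq2. At P10 against P3 it was 1, and 0 with library totals, with only the ages compared and with a replicate block, and 0 to 1 when 1 library was left out. At P21 against P10 it was 3, 4 with DESeq2 (Klf7 fell), 2 with limma voom, 1 with only the ages compared (Klf2), and 2 to 3 when 1 library was left out. At P56 against P21 it was 1, 0 with library totals and with only the ages compared, and 0 to 1 when 1 library was left out. At P21 against P3 it was 4, 5 with DESeq2 (Klf7 fell), and 3 to 4 under the other alternatives.

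The data neither show nor exclude the replicate block as a pairing (6 of 12 libraries correlated best with their own number). With the block, the counts were 0 at P3 against E14.5, 0 at P10 against P3, 3 at P21 against P10, 4 at P21 against E14.5 and 3 at P21 against P3. No block was possible with P56, whose numbers are 4 to 6.

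Signs turned with upper quartile scaling for Klf7 at P10 against P3 (0.020), with limma voom for Klf13 at P56 against P10 (0.032), and with library totals for Klf3 at P21 against E14.5 (-0.24), P56 against E14.5 (-0.14) and P56 against P3 (-0.24), for Klf10 at P21 against E14.5 (-0.20) and for Klf7 at P56 against E14.5 (-0.35). With 1 library left out at a time, the log2 change spanned 0 for Klf7 at P10 against P3 (-0.32 to 0.12), P56 against E14.5 (-0.19 to 0.30) and P56 against P10 (-0.52 to 0.033). It also did so for Klf3 at P21 against E14.5 (-0.039 to 0.16), for Klf10 at P21 against E14.5 (-0.068 to 0.20) and for Klf13 at P56 against P10 (-0.14 to 0.16).

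The counts over all tested genes, which give the background shares, moved more. At P3 against E14.5, 302 genes passed, with 127 (without E14.5 replicate 2) to 825 (DESeq2) under the alternatives. At P10 against P3 it was 59, with 21 (without P3 replicate 3) to 334 (DESeq2). At P21 against P10 it was 168, with 30 (without P10 replicate 1) to 748 (DESeq2), and at P56 against P21 it was 40, with 3 (only the ages compared) to 524 (DESeq2). At P21 it was 1789 against E14.5 (1108 to 2782) and 534 against P3 (241 to 1149).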
